A study of Mus musculus with 16 samples.

Results

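Aminoacyl-tRNA synthetases are the enzymes that join each amino acid to its transfer RNA. The genes described here were all genes of the deposited counts table whose symbol is an amino acid letter followed by ars, with or without a final 1 or 2, together with the glutamyl-prolyl enzyme, the mitochondrial glutamyl enzyme and both subunits of the cytosolic phenylalanyl enzyme. There were 37 such genes of 41079 in the table, 20 for cytosolic enzymes and 17 for mitochondrial enzymes, whose names end in 2. Gars1 and Kars1 are known to encode both the cytosolic and the mitochondrial form and were counted with the cytosolic genes.

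Charged transfer RNAs are the substrate of the ribosome, and a cell keeps separate enzyme sets for the cytosol and for the mitochondrion. When charging falls short, uncharged transfer RNA activates the kinase GCN2, and translation of the transcription factor ATF4 rises; ATF4 is known to act on genes for amino acid synthesis, amino acid transport and many cytosolic synthetases. In the liver, glucagon acting through its receptor promotes amino acid uptake and breakdown.

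The study sequenced polyadenylated RNA from livers of mice aged 20 to 22 months, 4 livers in each of 4 groups. All mice carried loxP-flanked (floxed) Gcgr alleles, the gene of the glucagon receptor, on a C57BL/6J background. LKO mice also carried an Albumin-Cre transgene, whose promoter is active in hepatocytes, and CRE- mice did not; the groups were male CRE-, male LKO, female CRE- and female LKO. Each liver is a separate biological replicate in the labels. Cells of an LKO liver in which Cre does not act keep the floxed gene, and a bulk liver library holds RNA of all cells. CRE- controls here have no Cre, so the Cre protein and the loss of the receptor cannot be told apart.

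Library totals ran from 33268424 to 56488920 counts. All 37 synthetase genes passed the filter on low counts, which kept 16742 genes. The lowest count of any of them in any library was 40, for Mars2. Levels are given as CPM, counts scaled to library size and, by the trimmed mean of M-values (TMM), to library composition, and differences as log2 fold changes with standard errors (SE) from 1 edgeR quasi-likelihood fit of all 16 livers, with p-values adjusted over all genes tested by the Benjamini-Hochberg method. A gene was called at an adjusted p under 0.05.

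Gcgr, the targeted gene, was at 190, 193, 127 and 190 CPM in the male CRE- livers and at 117, 136, 130 and 160 CPM in the male LKO livers. It was at 162, 208, 201 and 180 CPM in the female CRE- livers and at 48.8, 132, 119 and 93.6 CPM in the female LKO livers. The male groups overlapped through male CRE- replicate 3, and every female LKO liver lay below every female CRE- liver. The log2 fold change was -0.37 (SE 0.245, edgeR adjusted p = 0.671) in males and -0.93 (SE 0.247, edgeR adjusted p = 0.0443) in females. Reads from every Gcgr exon enter these counts, those not removed by Cre too, so they are a weak check of the labels.

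The hepatocyte markers Alb, Ttr, Apoa1, Serpina1a and Fgb together held 54764 to 131132 CPM in the 16 livers, and Alb, the most abundant of them, held 41687 to 105504 CPM. 3 libraries stood apart from the rest. Rn7sk, an RNA of the nucleus without a poly(A) tail, was at 21.9 CPM in male CRE- replicate 3, 72.0 CPM in female CRE- replicate 4 and 73.7 CPM in female LKO replicate 1, against at most 13.7 CPM in any other liver. Pancreatic acinar markers, in addition, summed to 112 CPM in male CRE- replicate 2 and 430 CPM in female CRE- replicate 2, against at most 1.64 CPM in the others. A fit without these 3 libraries, chosen after seeing the data, is given beside some results; it has fewer livers, so a call can be lost without a smaller difference. In that fit the log2 fold change of Gcgr was -0.71 in females (edgeR adjusted p = 0.0645), -0.51 in males (edgeR adjusted p = 0.236) and -0.61 for the mean of the sexes (edgeR adjusted p = 0.0137, against 0.0555 with all livers).

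Per kilobase of exon, the cytosolic genes held from 4.95 CPM for Farsb, which encodes the beta subunit of the phenylalanyl enzyme, to 49.1 CPM for Tars1, the threonyl enzyme, as means over the 16 livers. Nars1 and Aars1, the asparaginyl and alanyl enzymes, came next below Tars1 at 46.2 and 39.6 CPM per kilobase. The mitochondrial genes ran from 0.646 CPM per kilobase for Wars2, the tryptophanyl enzyme, to 8.98 for Iars2, the isoleucyl enzyme, apart from Lars2 at 313, so the ranges of the classes overlapped. Levels per length are low partly by construction where the counted exons span many bases, as in Nars2 (15898), Fars2 (12531), Wars2 (8196) and Farsb (6391), so the lowest places in this order are uncertain.

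The first comparison asked how loss of the hepatic receptor went with synthetase RNA in males. 18 of the 20 cytosolic genes had a positive log2 fold change in male LKO livers, with a median of 0.24 and a range of -0.21 to 0.65, against a median of -0.01 and 49.1% positive over all genes tested. None of the 37 synthetase genes was called by edgeR, in a comparison that called 0.454% of all genes. At an unadjusted p under 0.05, 7 cytosolic genes were higher and 1 mitochondrial gene was lower, where 9.53% of all genes passed in either direction. DESeq2, run as an alternative, called 3 cytosolic genes, Sars1, Cars1 and Yars1, in a comparison that called 2.03% of all genes. In 6 cytosolic genes, Sars1, Cars1, Gars1, Yars1, Nars1 and Tars1, every male LKO liver lay above every male CRE- liver, a pattern seen in 3.57% of all genes; the opposite pattern, seen in 2.92% of all genes, held for Wars2 alone among the 37.

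In females the cytosolic genes were mixed. The median log2 fold change was 0.05, 13 of 20 were positive, and the range ran from -0.61 to 0.57, beside a median of 0.04 and 53.1% positive over all genes. No synthetase gene was called by edgeR in a comparison that called 4.24% of all genes. That share is 710 genes, and with 1 liver left out the comparison called 87 to 1310. At an unadjusted p under 0.05, 2 cytosolic genes were higher, 1 was lower and 3 mitochondrial genes were lower, where 21.4% of all genes passed. DESeq2 called Tars1, Vars1 and Nars2, in a comparison that called 11.1% of all genes. Every female LKO liver lay above every female CRE- liver for Vars1, which 5.2% of all genes also showed, and below for genes that include Tars1 and Nars2, which 6.42% of all genes also showed.

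Averaged over the sexes, 3 synthetase genes were called and all 3 were higher in LKO livers: Gars1, Cars1 and Sars1. The same comparison called 2.86% of all genes, and 1.2% of all genes as higher. At an unadjusted p under 0.05, 6 cytosolic genes were higher and 1 mitochondrial gene was lower, where 15.8% of all genes passed. DESeq2 called the same 3 synthetase genes, where it called 6.2% of all genes.

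Gars1 encodes glycyl-tRNA synthetase. It was at 38.9, 56.7, 45.4 and 48.2 CPM in male CRE- livers and at 90.4, 69.2, 64.7 and 64.7 CPM in male LKO livers. In females it was at 49.6, 43.3, 46.6 and 58.5 CPM without Cre and at 77.2, 50.7, 62.0 and 80.4 CPM in LKO livers. All 4 male LKO livers exceeded all 4 male controls, and in females replicate 2 of the LKO group fell within the control range. Group means were 47.3 ± 7.36 CPM in male CRE-, 72.3 ± 12.3 in male LKO, 49.5 ± 6.49 in female CRE- and 67.6 ± 13.8 in female LKO livers (SD, n = 4 each). Between the groups the log2 fold change was 0.61 in males (SE 0.181, edgeR adjusted p = 0.195), 0.45 in females (SE 0.180, edgeR adjusted p = 0.157) and 0.53 for the mean of the sexes (SE 0.128, edgeR adjusted p = 0.0329).

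Cars1 encodes cysteinyl-tRNA synthetase. Male CRE- livers held 33.9, 38.7, 36.6 and 43.4 CPM and male LKO livers 52.4, 69.2, 59.1 and 58.6 CPM. Female CRE- livers held 44.6, 38.2, 38.7 and 40.2 CPM and female LKO livers 50.3, 51.1, 60.7 and 35.2 CPM. The male groups did not overlap; in females 3 LKO livers lay above every control and replicate 4 lay below every control. For Cars1 the log2 fold change was 0.65 in males (SE 0.161, edgeR adjusted p = 0.107), 0.29 in females (SE 0.161, edgeR adjusted p = 0.324) and 0.47 for the mean of the sexes (SE 0.114, edgeR adjusted p = 0.0348).

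Sars1 encodes seryl-tRNA synthetase, which also charges the transfer RNA of selenocysteine. Its levels were 56.3, 69.9, 63.3 and 66.3 CPM in male CRE- livers and 104, 97.0, 93.5 and 96.3 CPM in male LKO livers. They were 63.8, 61.3, 68.3 and 78.3 CPM in female CRE- livers and 80.3, 72.1, 79.5 and 65.8 CPM in female LKO livers. The male groups were far apart for their spread, at 64.0 ± 5.77 and 97.8 ± 4.70 CPM (SD, n = 4 each), while the female groups overlapped. In Sars1 the log2 fold change was 0.61 in males (SE 0.134, edgeR adjusted p = 0.0563), 0.13 in females (SE 0.133, edgeR adjusted p = 0.621) and 0.37 for the mean of the sexes (SE 0.0945, edgeR adjusted p = 0.0421).

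These 3 calls lie near the threshold. With a replicate block, Gars1 and Cars1 were called for the mean of the sexes (edgeR adjusted p = 0.0397 and 0.0482), and Sars1 was not (0.0517). Without the 3 libraries that stood apart, Sars1 was still called for the mean of the sexes (edgeR adjusted p = 0.0326), and Gars1 (0.0566) and Cars1 (0.0848) were not; leaving out 1 liver at a time, Gars1 was called in 8 of 16 fits, Cars1 in 6 and Sars1 in 2, with adjusted p from 0.0159 to 0.0877, 0.00937 to 0.0882 and 0.0335 to 0.115.

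**Figure D1:**
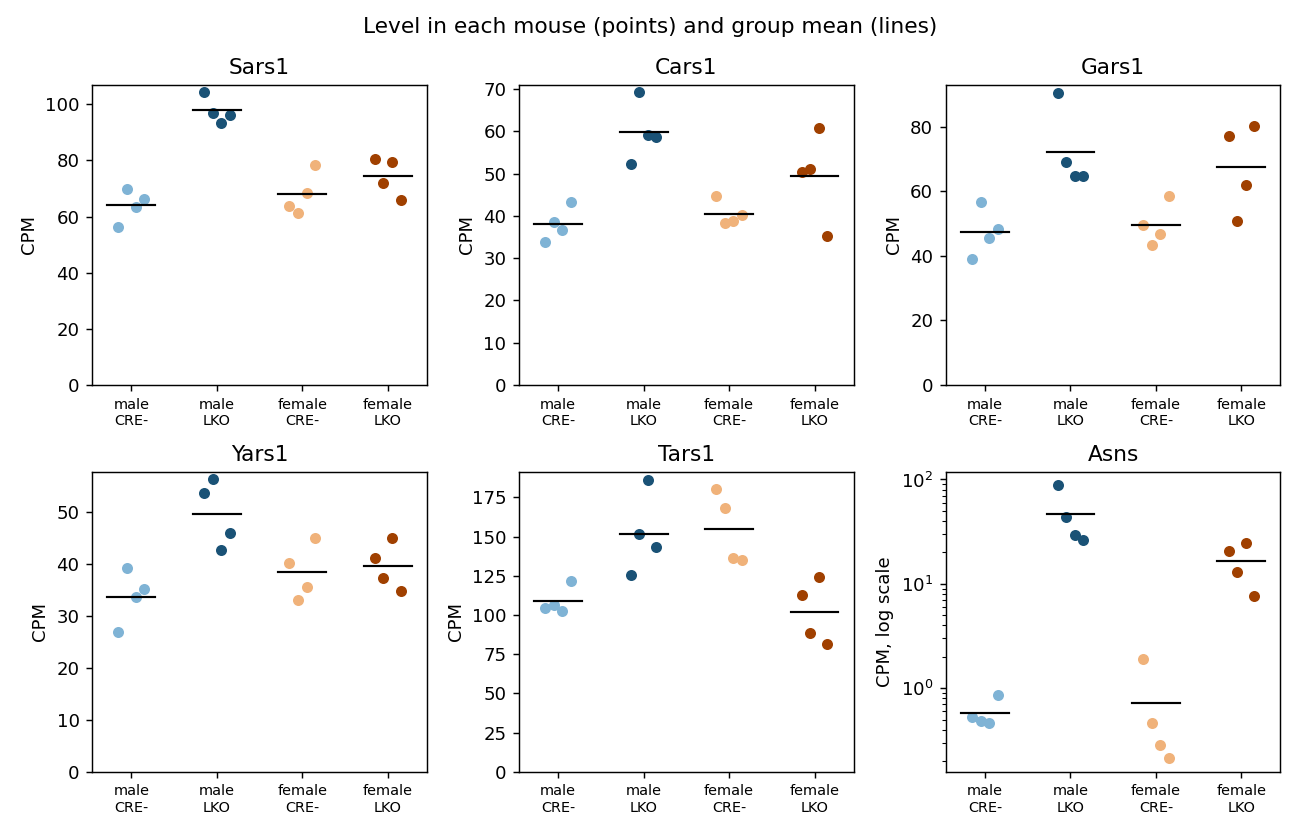
Level of 5 cytosolic synthetase genes and of Asns in each of the 16 livers (points, CPM; log scale for Asns alone) with group means (lines), n = 4 per group. For Sars1, Cars1, Gars1, Yars1 and Tars1 every male LKO point lies above every male CRE- point, and for Tars1 every female LKO point lies below every female CRE- point.

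Of the other cytosolic genes named by the size of the mean change, Farsa, which encodes the alpha subunit of the phenylalanyl enzyme, and Lars1, the leucyl enzyme and a known leucine sensor upstream of mTORC1, each had a mean log2 fold change of 0.30, and neither was called (edgeR adjusted p = 0.391 and 0.374). Farsa was at 16.6, 18.6, 7.85 and 16.7 CPM in male CRE- and at 18.4, 22.3, 19.01 and 20.4 CPM in male LKO livers. It was at 17.4, 18.9, 17.5 and 16.3 CPM in female CRE- and at 14.5, 18.5, 19.9 and 26.6 CPM in female LKO livers. The low male value was that of replicate 3, and the groups overlapped in both sexes. Lars1 was at 33.6, 32.5, 52.5 and 27.7 CPM in male CRE- and at 58.8, 38.9, 37.5 and 38.1 CPM in male LKO livers. It was at 36.3, 29.1, 29.7 and 31.2 CPM in female CRE- and at 54.2, 30.1, 41.8 and 35.8 CPM in female LKO livers. The highest LKO liver was replicate 1 in each sex. With 1 liver left out the mean log2 fold change ran from 0.19 to 0.37 for Farsa and from 0.20 to 0.41 for Lars1.

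Yars1, the tyrosyl enzyme, and Nars1 were chosen after their values were seen. Yars1 was at 26.9, 39.2, 33.7 and 35.2 CPM in male CRE- and at 53.7, 56.4, 42.7 and 46.1 CPM in male LKO livers, a log2 fold change of 0.56 (SE 0.157, edgeR adjusted p = 0.162), and its female log2 fold change was 0.04 (SE 0.156, edgeR adjusted p = 0.915). Nars1 was at 105, 121, 119 and 103 CPM in male CRE- and at 155, 152, 126 and 130 CPM in male LKO livers. Its log2 fold changes were 0.33 in males (SE 0.138, edgeR adjusted p = 0.441) and 0.10 in females (SE 0.138, edgeR adjusted p = 0.721). In both genes the male groups were separate and the female differences were small for their error.

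Tars1, the most abundant cytosolic gene per kilobase, had fold changes of opposite sign in the sexes, and neither was called. It was at 105, 107, 102 and 122 CPM in male CRE- livers and at 126, 152, 186 and 144 CPM in male LKO livers. In females it was at 180, 168, 137 and 135 CPM without Cre and at 113, 88.7, 124 and 81.7 CPM in LKO livers. Every male LKO liver lay above every male control, and every female LKO liver lay below every female control; female controls also lay above male controls. The log2 fold change was 0.48 in males (SE 0.176, edgeR adjusted p = 0.354) and -0.61 in females (SE 0.176, edgeR adjusted p = 0.0602). The female minus male difference of these was -1.08 (SE 0.249), with an unadjusted p of 0.000456 and an adjusted p of 0.136 by edgeR, and an adjusted p of 0.00672 by DESeq2. Without the 3 libraries that stood apart, the edgeR adjusted p was 0.1002 in females and 0.245 for the difference.

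Farsb, the least abundant cytosolic gene per kilobase, also had a positive male value (0.22, SE 0.163, edgeR adjusted p = 0.704) and a negative female value (-0.31, SE 0.163, edgeR adjusted p = 0.298). It was at 27.5, 35.5, 21.4 and 32.0 CPM in male CRE- and at 34.1, 33.0, 30.2 and 38.1 CPM in male LKO livers. It was at 35.4, 30.8, 37.0 and 37.3 CPM in female CRE- and at 29.3, 23.8, 33.0 and 27.6 CPM in female LKO livers. Both pairs of groups overlapped. With 1 liver left out the Farsb log2 fold change ran from 0.08 to 0.33 in males and from -0.39 to -0.23 in females. Vars1, the valyl enzyme, chosen after its values were seen, was at 45.8, 35.2, 40.9 and 36.1 CPM in female CRE- and at 59.0, 47.4, 49.6 and 79.1 CPM in female LKO livers. Its log2 fold change was 0.57 in females (SE 0.178, edgeR adjusted p = 0.0752) and -0.01 in males (SE 0.177, edgeR adjusted p = 0.992).

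The sum over the 20 cytosolic genes was 1144, 1366, 1297 and 1204 CPM in male CRE- livers and 1541, 1527, 1437 and 1443 CPM in male LKO livers. In females it was 1457, 1255, 1309 and 1367 CPM without Cre and 1475, 1206, 1298 and 1372 CPM in LKO livers. All male LKO sums exceeded all male control sums, and the female sums overlapped, with means of 1347 ± 86.5 and 1338 ± 114 CPM (SD, n = 4 each). No test was made of the sums.

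Tested gene by gene, the female minus male difference was not called for any synthetase gene by edgeR, which called 0 genes in all (0.0%), and was called for Tars1 by DESeq2, which called 2.22% of all genes. At an unadjusted p under 0.05, 1 cytosolic gene (Vars1) had a higher female difference and 4 cytosolic and 2 mitochondrial genes a lower one, where 16% of all genes passed. The median difference was -0.22 over the cytosolic and -0.24 over the mitochondrial genes, against 0.04 over all genes tested. In 12 of the 20 cytosolic genes both sexes had a positive value, in 1 both were negative, in 6 males were positive and females negative, and in 1 the reverse.

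The control livers themselves were compared between the sexes. No synthetase gene was called by edgeR, which called 0.92% of all genes, nor by DESeq2, which called 3.11%. At an unadjusted p under 0.05, 1 cytosolic and 2 mitochondrial genes were higher in female controls, where 12.7% of all genes passed. The median female minus male log2 fold change was 0.10 over the cytosolic and 0.02 over the mitochondrial genes; with 1 liver left out these ran from 0.05 to 0.17 and from -0.02 to 0.11. The largest value among the cytosolic genes was 0.51, for Tars1 (SE 0.176, edgeR adjusted p = 0.233).

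**Figure D2:**
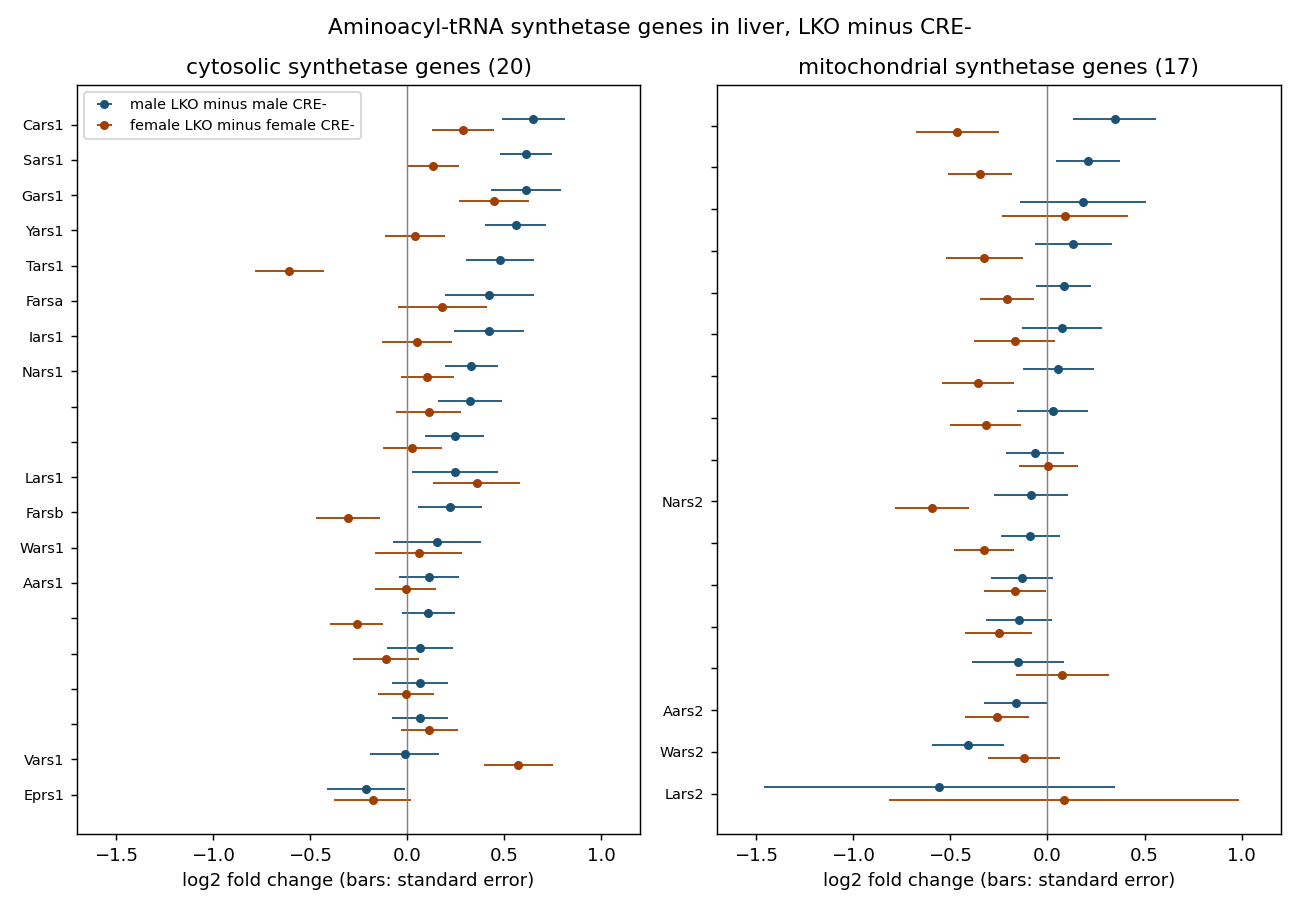
Log2 fold change, LKO minus CRE-, with its SE (bars) of each of the 20 cytosolic and 17 mitochondrial synthetase genes. Males and females are shown apart, from the fit of all 16 livers. Names are printed only for some of the genes that the text names. 18 cytosolic genes are positive in males, and 13 of the 17 mitochondrial genes are negative in females; Lars2 has an SE of 0.904 in males.

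The cytosolic enzymes divide by where they sit. 8 of the 20 are held in the multi-synthetase complex, and 12 are outside it. The median male log2 fold change was 0.18 over the complex enzymes and 0.38 over the others, and the female medians were 0.01 and 0.11. All 3 called genes and all 6 with separate male groups were outside the complex. By catalytic fold, the male median was 0.24 over the 9 class I and 0.28 over the 10 class II genes, the bifunctional Eprs1 having both. Eprs1 was 1 of the 2 cytosolic genes with a negative male value (-0.21, SE 0.200, edgeR adjusted p = 0.769), and its female value was also negative (-0.18, SE 0.200, edgeR adjusted p = 0.661).

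The scaffold proteins of that complex, encoded by Aimp1, Aimp2 and Eef1e1, and the transfer RNA exporter Xpot were not called in either sex. Their male log2 fold changes were 0.41 (SE 0.199, edgeR adjusted p = 0.542), 0.32 (SE 0.287, edgeR adjusted p = 0.758), 0.58 (SE 0.268, edgeR adjusted p = 0.508) and 0.11 (SE 0.241, edgeR adjusted p = 0.916), in that order, and their female values ran from -0.14 to 0.09. Without the 3 libraries that stood apart the male values were 0.25, 0.12, 0.41 and 0.26, and the female values ran from -0.05 to 0.23. Of the 16 scaffold, export and other charging genes, 1 was called, Sepsecs, in a comparison that called 4.24% of all genes; it encodes the enzyme that completes selenocysteine on its transfer RNA and was lower in female LKO livers. It was at 68.8, 75.8, 77.2 and 52.5 CPM in female CRE- and at 34.2, 46.7, 42.3 and 35.3 CPM in female LKO livers, a log2 fold change of -0.79 (SE 0.213, edgeR adjusted p = 0.0474), and -0.81 without the 3 libraries that stood apart (edgeR adjusted p = 0.0905). Over this list the median was 0.12 in males and -0.16 in females, and 12 male and 3 female values were positive. Without the 3 libraries that stood apart, Aarsd1, Dtd1, Gatb and Mtfmt turned negative in males, at -0.05, -0.07, -0.06 and -0.001. In females Aimp1, Aimp2 and Dtd1 turned positive, at 0.09, 0.23 and 0.13, and Trnt1 turned negative, at -0.12. The other signs were unchanged. No gene of the 5 cytosolic elongation factors was called, with medians of 0.35 in males and -0.06 in females. Without the 3 libraries that stood apart these medians were 0.23 in males and 0.07 in females, a turned direction in females.

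25 genes of the amino acid response were listed beside the synthetases. edgeR called 7 as higher in male LKO livers, 7 in female LKO livers and 13 for the mean of the sexes, and none as lower, where it called 0.454%, 4.24% and 2.86% of all genes; without the 3 libraries that stood apart it called 7 (Psph in place of Trib3), 2 (Asns and Psat1) and 12 (Eif4ebp1 in place of Slc7a11 and Slc7a5). Of all 16850 genes tested without those libraries, 66, 122 and 399 were called, against 76, 710 and 478 of 16742 with all livers. The 5 female calls lost in that fit were Phgdh, Trib3, Mthfd2, Sesn2 and Slc7a1, at 2.34, 1.73, 1.83, 0.81 and 1.16. Over the list the median was 1.06 in males and 0.57 in females. Asns, which makes asparagine and is a standard readout of ATF4, was at 0.527, 0.490, 0.468 and 0.854 CPM in male CRE- and at 87.9, 44.0, 29.5 and 26.4 CPM in male LKO livers. It was at 1.91, 0.467, 0.287 and 0.214 CPM in female CRE- and at 20.7, 12.9, 24.8 and 7.58 CPM in female LKO livers. No control overlapped any LKO liver, and the log2 fold change was 6.32 in males (SE 0.675, edgeR adjusted p = 0.000425) and 4.50 in females (SE 0.624, edgeR adjusted p = 0.00274); the female minus male difference was -1.82 (SE 0.810, edgeR adjusted p = 0.294).

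Psat1, Phgdh, Mthfd2 and Trib3, of serine synthesis, mitochondrial folate metabolism and the feedback on ATF4, were also called in both sexes. Their log2 fold changes were 5.07, 4.32, 2.56 and 2.03 in males and 3.64, 2.15, 2.12 and 1.60 in females. Atf5 (1.05) and Aldh1l2 (3.74) were called in males, Sesn2 (1.15) and the cationic amino acid transporter Slc7a1 (1.80) in females, and Chac1, Psph, Slc7a11, Slc3a2 and Slc7a5 for the mean of the sexes at 2.08, 0.66, 3.98, 0.85 and 1.29. Slc7a1 was at 13.5 CPM in female LKO replicate 1 and at 2.89 to 6.38 CPM in the other female LKO livers, and Slc7a5 was at 0.81 for the mean without the 3 libraries that stood apart (edgeR adjusted p = 0.0630), so both sizes are uncertain. So is that of Slc7a11: 1 male LKO liver held 18.3 CPM and the other 3 at most 1.54, the male groups overlapped, and 2 female controls had 0 counts; without the 3 libraries that stood apart it was not called (edgeR adjusted p = 0.0663). Atf4 itself, which is known to be controlled mainly in translation, was at 91.2, 77.7, 44.3 and 98.8 CPM in male CRE- and at 143, 120, 108 and 120 CPM in male LKO livers. In females Atf4 was at 77.3, 95.8, 99.4 and 71.2 CPM without Cre and at 53.4, 96.0, 127 and 113 CPM in LKO livers. The Atf4 log2 fold change was 0.66 in males (SE 0.261, edgeR adjusted p = 0.405) and 0.18 in females (SE 0.260, edgeR adjusted p = 0.743). Without the 3 libraries that stood apart it was 0.44 in males (edgeR adjusted p = 0.352) and 0.33 in females (edgeR adjusted p = 0.307).

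13 cytosolic synthetase genes are often listed as ATF4 targets, and all 3 called genes were among them. Their median log2 fold change was 0.33 in males and 0.06 in females, against 0.11 and -0.01 over the 7 others. Male LKO replicate 1 had the highest Asns of its group and the highest level of 10 of the 20 cytosolic genes, and replicate 2 that of 7. In female LKO livers Asns was highest in replicate 3, which had the highest level of 4 of the 20, against 9 in replicate 1 and 7 in replicate 4.

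The composite element that ATF4 is known to bind was searched as TGATGNAA on both strands of the RefSeq promoter windows, which run from 250 bases before to 50 after each gene start in build GRCm38.p6, another build than the GRCm39 of the counts. Windows were matched by symbol or older symbol for 13 cytosolic and 14 mitochondrial genes; those without one included Cars1, Rars1, Wars1, Vars1, Hars1, Lars1, Nars1, Pars2 and Hars2. The letters occurred for 5 of these 13 cytosolic genes (Aars1, Gars1, Iars1, Tars1 and Yars1) and for 0 of the 14 mitochondrial genes. They occurred in 1304 of 32851 single windows in all, 3.97%. A gene counted if any window of its symbol matched, so the shares of genes and of windows are in unlike units. With a further T at the end (TGATGNAAT), a subset of the shorter matches, the letters occurred for 3 cytosolic genes (Aars1, Gars1 and Iars1). Of all single windows, 0.965% held this longer motif. No window of the called Sars1 held a match. A match is a description of the letters, and binding was not measured.

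Matches are shown for 4 of the 5 matched cytosolic genes and for Asns, to give the letters behind the count. The called Gars1 is among them. Capitals mark the motif as it reads on the strand of the gene, 5′ to 3′. It begins with TT where the match is on the opposite strand. The matches of Aars1, whose log2 fold changes were 0.11 in males and -0.01 in females, are not shown. Positions count from the first transcribed base as 0. The match in Gars1 starts at -30 (chr6:55037960-55037989, plus strand), in Tars1 at -15 (chr15:11399655-11399684, minus strand), in Iars1 at 7 (chr13:49682126-49682155, plus strand) and in Yars1 at 3 (chr4:129189895-129189924, plus strand). Asns, for comparison, has its match at -23 (chr6:7693214-7693243, minus strand).
Gars1: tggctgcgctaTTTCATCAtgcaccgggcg
Tars1: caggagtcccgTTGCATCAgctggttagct
Iars1: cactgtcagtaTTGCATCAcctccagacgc
Yars1: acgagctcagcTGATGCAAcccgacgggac
Asns: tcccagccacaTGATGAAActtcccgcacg

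The mitochondrial genes made a different picture. In females 13 of 17 were lower in LKO livers, with a median log2 fold change of -0.25, and in males 8 were higher and 9 lower, with a median of -0.06. For the mean of the sexes 16 of 17 were negative, with a median of -0.15, against 0.02 over all genes; by limma-voom the median was -0.06 with 3 genes positive. None was called by edgeR in any comparison, and DESeq2 called Nars2 in females alone. Without Lars2, a choice made after seeing the data, the medians were -0.02 in males, -0.26 in females and -0.12 for the mean of the sexes.

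Nars2, the asparaginyl enzyme, was at 19.6, 17.5, 12.04 and 14.1 CPM in male CRE- and at 12.97, 15.6, 15.4 and 15.6 CPM in male LKO livers. It was at 13.2, 15.3, 15.9 and 12.5 CPM in female CRE- and at 6.70, 11.4, 9.38 and 10.2 CPM in female LKO livers. The female groups were separate and the male groups were not. The log2 fold change was -0.59 in females (SE 0.191, edgeR adjusted p = 0.0827, or 0.117 without the 3 libraries that stood apart; DESeq2 adjusted p = 0.0398) and -0.09 in males (SE 0.189, edgeR adjusted p = 0.915).

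Aars2, the alanyl enzyme, was at 20.3, 25.3, 20.4 and 19.1 CPM in male CRE- and at 13.6, 20.1, 19.2 and 23.0 CPM in male LKO livers. It was at 21.7, 23.7, 22.4 and 18.98 CPM in female CRE- and at 18.5, 17.6, 16.4 and 20.1 CPM in female LKO livers. Its groups overlapped in both sexes, and its mean log2 fold change was -0.21 (SE 0.116, edgeR adjusted p = 0.405).

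Wars2, the least abundant synthetase gene per kilobase, was at 6.27, 5.79, 7.12 and 5.66 CPM in male CRE- and at 4.48, 5.31, 3.73 and 5.21 CPM in male LKO livers. It was at 5.66, 5.82, 5.72 and 4.25 CPM in female CRE- and at 4.53, 5.36, 4.65 and 5.21 CPM in female LKO livers. The male groups were separate and the female groups overlapped. The log2 fold change was -0.41 in males (SE 0.186, edgeR adjusted p = 0.504) and -0.12 in females (SE 0.186, edgeR adjusted p = 0.767).

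Summed over the 16 mitochondrial genes other than Lars2, levels were 278, 320, 265 and 267 CPM in male CRE- and 256, 298, 270 and 293 CPM in male LKO livers. They were 278, 305, 295 and 279 CPM in female CRE- and 222, 263, 236 and 253 CPM in female LKO livers. Every female LKO sum lay below every female control sum, and the male sums overlapped. Of the 9 mitochondrial translation factors, all were lower in female LKO livers, with a median log2 fold change of -0.34, and 1 was called, the ribosome recycling factor Gfm2 (-0.62, SE 0.164, edgeR adjusted p = 0.0454 in females, and 0.130 without the 3 libraries that stood apart), where 4.24% of all genes were called and 53.1% were positive. In males 7 of the 9 were positive, with a median of 0.12. Without the 3 libraries that stood apart the female median was -0.18, with Tsfm at 0.05 and the others negative. The male median in that fit was -0.0009. Tsfm, Mtif3, Mtrf1 and Mtrf1l were positive in males, at 0.02, 0.04, 0.24 and 0.10, and the others were negative.

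Markers of some other cell types were called between the female groups, in a comparison that called 4.24% of all genes. No gene of the T and NK, B and plasma, endothelial, stellate and fibroblast, cholangiocyte or hepatocyte lists was called. The 5 macrophage markers summed to 582, 425, 457 and 753 CPM in female CRE- livers. In female LKO livers they summed to 2157, 703, 1476 and 947 CPM. Lyz2 was the most abundant of them over all livers. Within the female groups Clec4f had the higher mean, at 207 CPM in CRE- (Lyz2 182) and 426 CPM in LKO livers (Lyz2 403). 1 of the 5, Adgre1, was called, with a log2 fold change of 2.15 (SE 0.572, edgeR adjusted p = 0.0451). Adgre1 was at 334 CPM in female LKO replicate 1 and at 45.2 to 99.4 CPM in the other female LKO livers, and without the 3 libraries that stood apart its log2 fold change was 1.27 (edgeR adjusted p = 0.153). The neutrophil markers (S100a9 the most abundant) summed to 25.2, 13.4, 11.4 and 13.9 CPM in female CRE- and 71.7, 29.2, 47.3 and 479 CPM in female LKO livers, with Retnlg called, and 3 of the 4 proliferation markers, Top2a, Cdk1 and Ccnb1, were called as higher; without the 3 libraries only Cdk1 of these markers was called, while the values of Retnlg, Top2a and Ccnb1 were 3.11, 2.36 and 2.56 against 2.86, 2.45 and 2.60 with all livers. The 5 hepatocyte markers summed to 116749, 108304, 113009 and 131132 CPM in female CRE- and 54764, 89446, 89645 and 70376 CPM in female LKO livers. No marker of these lists was at 0 in every library. In males no gene of any marker list was called. The male neutrophil markers summed to 52.8, 13.1, 6.58 and 114 CPM in CRE- and 16.9, 9.81, 7.40 and 7.08 CPM in LKO livers, and all 3 tested (S100a8, S100a9 and Retnlg) were lower in male LKO livers at an unadjusted p under 0.05, with log2 fold changes of -2.24, -2.23 and -1.52. Fewer cells of a type and less RNA per cell cannot be told apart in bulk tissue, and the part of cell composition in the synthetase values was not tested. None of the 12 interferon gamma response genes, listed because Wars1 is a known interferon gamma target, was called in either sex. The male and female comparisons called 0.454% and 4.24% of all genes. The median over the list was -0.24 in males, with 10 of 12 negative, and 0.06 in females, with 7 positive. Wars1 had log2 fold changes of 0.15 in males (SE 0.226, edgeR adjusted p = 0.860) and 0.06 in females (SE 0.226, edgeR adjusted p = 0.916).

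Lars2, the mitochondrial leucyl enzyme, behaved unlike every other member. It was at 249, 541, 2696 and 484 CPM in male CRE- and at 319, 763, 1157 and 461 CPM in male LKO livers. It was at 676, 424, 680 and 5734 CPM in female CRE- and at 5203, 1139, 381 and 1246 CPM in female LKO livers. The highest liver held 23.0 times the lowest, against 1.40 to 3.39 times for the other 36 genes, and the 3 high livers belonged to 3 groups. Lars2 alone took 14.9% to 77.7% of all synthetase counts in a library. The log2 fold change was -0.56 in males (SE 0.904, edgeR adjusted p = 0.873) and 0.09 in females (SE 0.902, edgeR adjusted p = 0.973). Without the 3 libraries that stood apart it was 0.66 in males, a reversed sign.

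The 3 livers with the highest Lars2 were also the 3 with the highest Rn7sk, Rmrp, Gm26917, AY036118, Gm15564, mt-Rnr1 and mt-Rnr2. Gm26917, for example, was at 33277 CPM in male CRE- replicate 3, 54414 in female CRE- replicate 4 and 50295 in female LKO replicate 1, against 2503 to 10715 in the other livers. The last exon of Lars2 (chr9:123290564-123291731, GRCm39, plus strand, 1168 bases) was compared with the whole genome, and bases 294 to 691 of it matched 15 other places over at least 80 bases at 90% identity or more. 1 of these lies in a counted exon on the same strand, in Gm15564 (chr16:35802025-35802191, minus strand, 97.6% identity over 167 bases). The match on the scaffold MU069435.1 (99.3% identity over 140 bases) was not compared with counted exons. Which molecules gave the Lars2 counts was not tested, so the Lars2 level is uncertain, and the other 36 genes were described apart from it where sums were given.

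**Figure D3:**
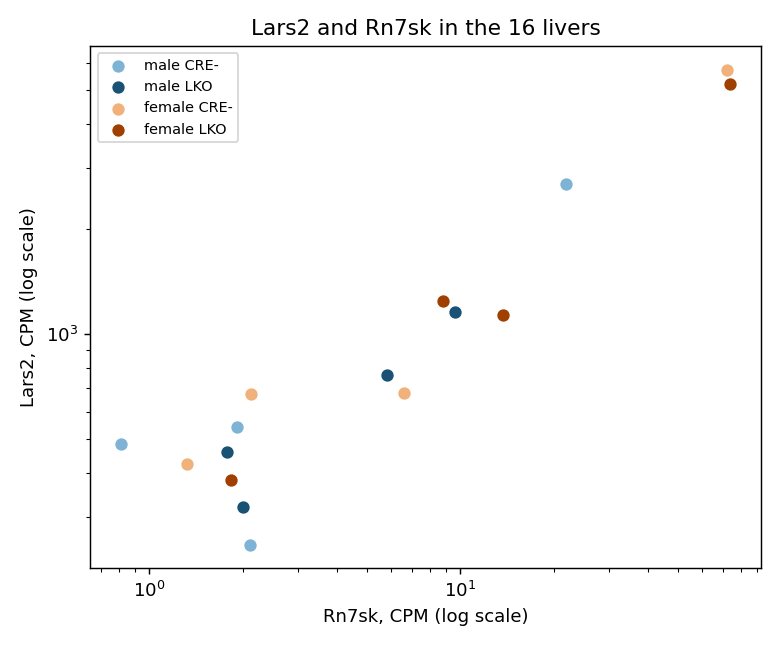
Lars2 against Rn7sk in the 16 livers (CPM, both axes log scale), coloured by group, n = 4 per group. Female CRE- replicate 4, female LKO replicate 1 and male CRE- replicate 3 are highest on both axes.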

How the data were processed

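The authors isolated liver RNA, and a sequencing company made poly(A)-selected libraries from it. Per their methods and the submitters' processing notes, the authors aligned reads to GRCm39 with STAR 2.7.1a and counted them per gene with featureCounts of Subread 2.0.6; the deposited values are whole-number counts, not normalized. The counting command counted reverse-strand reads, and its options do not name pair counting, so the counts are taken as reads. The members and the gene lists were chosen with earlier results of these data known.

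From the counts, genes were kept by filterByExpr with a minimum count of 10 (16742 of 41079), scaled by TMM and fitted with edgeR 4.0.16 (glmQLFit, glmQLFTest; R 4.3.3) to the 4 groups of 4 livers. The script was first tested on simulated data. Contrasts were male and female LKO minus CRE-, their mean, their difference, and female minus male CRE-. Synthetase genes were named with values per mouse where the adjusted p was under 0.05 in the male, female or mean comparison, for the 5 cytosolic and the 5 mitochondrial genes with the largest absolute mean change, and for the most and least abundant per length of each class; Gcgr and listed companion genes followed a like rule. Genes named outside it are said to be. 1 mitochondrial gene that the rule picks is not used here.

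All 16 columns of the table were used. Yars1, Nars1 and Vars1 were named after their values were seen, and the opposite directions of Tars1 were described for the same reason. Alternatives were DESeq2 1.42.0, limma 3.58.1 (voom with quality weights), each sex fitted alone, another scaling (RLE), 2 other filters, a replicate block, each liver left out in turn, and, added after seeing the data, the fit without 3 livers and medians without Lars2. Sequence matches used BLAST+ 2.17.0.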

Additional observations from a re-analysis of the deposited data

Results flagged for a closer look

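Among 84 sets of 4 livers examined (21 genes or sums in 4 groups), 8 held a liver far from the other 3, where chance gives about 1 in 20. These were Lars1 in male LKO replicate 1 (58.8 CPM), Nars2 in male LKO replicate 1 (12.97 CPM), Wars2 in female CRE- replicate 4 (4.25 CPM), Lars2 in male CRE- replicate 3 (2696 CPM) and in female CRE- replicate 4 (5734 CPM), Asns in male CRE- replicate 4 (0.854 CPM) and in female CRE- replicate 1 (1.91 CPM), and Gcgr in male CRE- replicate 3 (127 CPM). 4 of the 8 were in male CRE- replicate 3 or female CRE- replicate 4, which are among the 3 livers with high Rn7sk; the part of library quality in them was not tested.

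For Tars1, every male LKO liver lay above every male control and every female LKO liver below every female control, and edgeR called neither comparison. The female minus male difference of its log2 fold changes was -1.08 (edgeR adjusted p = 0.136, range over the alternatives 0.00672 to 0.302), so the tested difference passed by DESeq2 and not by edgeR.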

How the results depend on the processing

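Gars1, Cars1 and Sars1 were higher in LKO livers for the mean of the sexes in all 23 alternatives, with log2 fold changes of 0.46 to 0.59, 0.40 to 0.57 and 0.34 to 0.42, and were called in 14, 11 and 7 of them. The cytosolic median stayed positive in each sex in every fit, and the mitochondrial median stayed negative in females. Synthetase genes called in males numbered 3 by DESeq2, 1 with at least 10 counts in every library and 2 by limma-voom; in females 3 by DESeq2 and 2 by limma-voom; for the mean 5 by limma-voom, 1 with no filter and 1 without the 3 libraries; for the difference between the sexes 1 by DESeq2.

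All genes called in males numbered 339 by DESeq2 and 148 by limma-voom; in females 1816, 1976, 119 with each sex fitted alone and 122 without the 3 libraries; for the mean 1034 and 857; for the difference 371, 29, 12 with no filter and 1 without the 3 libraries; between control sexes 509, 329, 78 with at least 10 counts and 71 without the 3 libraries. The mitochondrial median of the difference was -0.12 without the 3 libraries. Lars2 turned direction: 0.52 in males by limma-voom, 0.66 in males and 0.66 for the mean without the 3 libraries. The cause was not tested.

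With 1 liver left out, synthetase genes called ran from 0 to 1 in males, 0 to 1 in females and 0 to 2 for the mean, and all genes called from 26 to 111, 87 to 1310, 299 to 598, 0 to 14 for the difference and 68 to 213 between control sexes. The cytosolic median ran from 0.02 to 0.12 in females and -0.27 to -0.14 for the difference. Between control sexes the mitochondrial median was -0.02 without the 3 libraries, a turned direction. The mitochondrial median ran from -0.09 to 0.03 in males, -0.16 to -0.09 for the mean and -0.30 to -0.11 for the difference, and Lars2 from -0.95 to 0.66 in males, -1.02 to 1.74 in females and -0.79 to 0.58 for the mean.

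A replicate block gave 63 genes called in males, 1244 in females and 629 for the mean, with 2 synthetase genes for the mean; Sars1 had an edgeR adjusted p of 0.0517, and the mitochondrial median for the mean was -0.08. Same-numbered livers of different groups correlated at -0.25 to 0.33, over 0.1 in 11 of 24 pairs. A liver correlated best with its own number in 24 of 48 comparisons with another group, a hint from the data. Not every pair was over 0.1, so the numbers were not taken to pair mice.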
